A study of Homo sapiens with 2 samples.

Results

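The genes that carry glucose carbon through glycolysis, the pentose phosphate pathway and the TCA cycle were examined in the poly(A)+ RNA of HEK293T cells, a line derived from human embryonic kidney and carrying SV40 large T antigen. The set held 41 genes that were chosen by symbol for their step in the pathway, with earlier results of these data known. All 41 had a row among the 57736 genes of the deposited tables. Of these, 21 belong to glucose transport, glycolysis and lactate dehydrogenase, 3 to the pentose phosphate pathway, and 17 to pyruvate entry and the TCA cycle.

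The study asked which parts of the genome contact the ribosomal DNA clusters, and the RNA libraries gave the expression of the same cells. There were 2 RNA libraries, both from untreated HEK293T cells labelled wild type and grown in serum-containing medium, so all samples form 1 group and no condition was compared. The labels do not say whether the replicates were separate cultures, so the spread between them may be technical. The label also gives kidney as the tissue, and of 14 kidney markers with a row only LRP2, PAX2, SIX2 and WT1 were detected, whereas 5 of the markers, AQP2 and UMOD among them, had no counts in either library. Of 9 neuronal markers with a row, 7 were detected, beside 63.7% of the protein-coding genes. Of these 7, SYN1, GAP43 and RBFOX3 lay near the detection limit in at least 1 replicate, with lowest levels of 1.03, 1.14 and 1.47 TPM, while STMN2 had no counts and MAP2 was not detected.

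In glycolysis, cytosolic enzymes split glucose to pyruvate, with hexokinase, phosphofructokinase and pyruvate kinase as the steps that are driven in one direction, and lactate dehydrogenase interconverts pyruvate and lactate. The pentose phosphate pathway branches off after hexokinase and yields NADPH and ribose phosphate. Pyruvate enters the mitochondrion, is decarboxylated by the pyruvate dehydrogenase complex or carboxylated by pyruvate carboxylase, and the acetyl group is oxidized in the TCA cycle. Many of these steps have isozymes encoded by separate genes, which are known to differ between tissues.

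The libraries held 10593491 and 10104118 estimated counts, and 3 counts, the upper limit that a count of 0 allows, correspond to 0.283 and 0.297 CPM. These limits, like the intervals given with count shares, cover counting error only. Levels of different genes were compared in TPM, which corrects for transcript length and scales each library to the same total, and a gene counted as detected when its TPM reached 1 in each replicate. Under this rule 40 of the 41 genes were detected, beside 27.7% of all genes and 63.7% of the protein-coding genes. The exception was PKLR, the pyruvate kinase of liver and red blood cells. All 40 genes also had at least 10 estimated counts in both libraries, the lowest value being 29.5 for ALDOC in replicate 2. The set leaves out 19 other isozymes of the same steps, of which 3 were detected. Its detected share and its levels therefore describe the listed genes only, and not all isozymes of these steps.

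The detected members lay high among the 12345 detected protein-coding genes, with a median percentile of 88.3. There were 18 of them in the top 10%, as against 10% of the background by construction, and 7 in the top 1%. These 7 were GAPDH, ALDOA, ENO1, TPI1, LDHB, LDHA and PKM, all of them enzymes of the steps from aldolase to lactate dehydrogenase. PGK1 and PGAM1, of the same stretch, lay lower, at percentiles of 98.4 and 97.7. Only 5 members lay below the median level of the detected coding genes, 21.2 TPM, and these were SLC2A3, ALDOC, ENO2, ENO3 and PC. In all, the 41 genes took 1.22% ± 0.0279 (SD, n = 2) of the TPM, of which glycolysis held 0.966% ± 0.0257, pyruvate entry and the TCA cycle 0.192% ± 0.000329, and the pentose phosphate enzymes 0.0604% ± 0.00256.

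**Figure D1:**
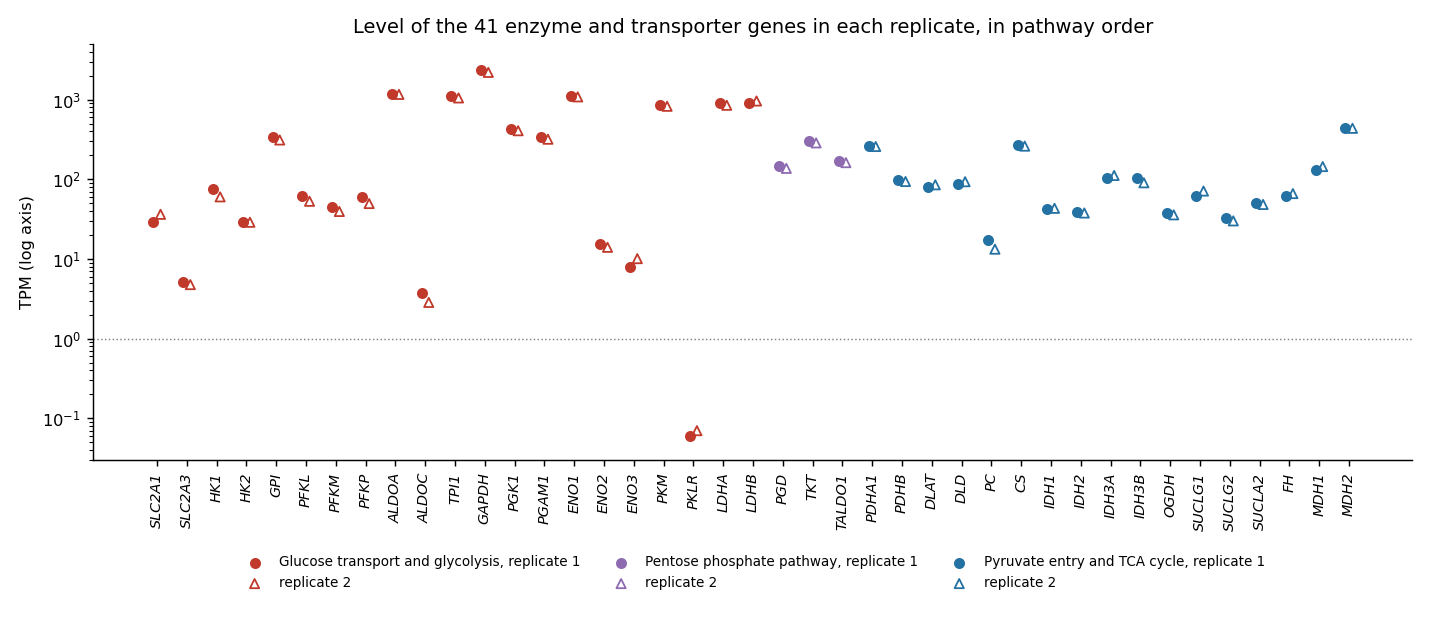
TPM of the 41 genes on a log axis, in pathway order; filled circles are replicate 1, open triangles replicate 2, colours mark the 3 arms, and the dotted line is the detection limit of 1 TPM. GAPDH is highest at 2327 and 2200.5 TPM, and PKLR is the only gene under the line at 0.06 and 0.07 TPM.

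In TPM, glucose uptake, hexokinase and phosphofructokinase were lower than every step from aldolase to lactate dehydrogenase. Glucose-6-phosphate isomerase lay at the lower edge of those steps. The summed level of a step was 37.6 ± 5.08 TPM (SD, n = 2) for glucose transport, 97.2 ± 11.4 for hexokinase, 328 ± 22.7 for glucose-6-phosphate isomerase and 155 ± 18.2 for phosphofructokinase. From aldolase to lactate dehydrogenase every step had at least the 328 ± 12.3 TPM of phosphoglycerate mutase, and the highest was GAPDH with 2264 ± 89.2 TPM. Thus the isomerase and the mutase had overlapping levels, while glucose transport and hexokinase did not overlap with any of the lower steps in either replicate. This order holds for TPM and was not tested under other length scalings. The average length of PGK1 was 1104 and 1121 nt, against 4812 nt for its canonical transcript in GENCODE release 44. By estimated counts the margin was small, with 3347 and 3138 for PGK1 beside 2882 and 2441 for phosphofructokinase and 2883 and 2536 for hexokinase.

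The facilitative glucose transporter of most proliferating cells, SLC2A1 (GLUT1), had 28.9 TPM in replicate 1 and 36.4 TPM in replicate 2. The high-affinity transporter SLC2A3 (GLUT3) had 5.08 and 4.77 TPM, and SLC2A1 was higher in both replicates, 5.69-fold and 7.63-fold. The ratio is less certain than these values imply, because a pseudogene copy, SLC2A3P1, had 61.5 and 10.4 estimated counts beside 84.3 and 73.3 for SLC2A3 itself. The posterior SD of the copy, the uncertainty that the authors' estimation attaches to sharing reads, was 16.1 and 13.1 counts. Copies of SLC2A3 held 44.2% and 17.7% of the counts of the gene and its copies, the only member for which copies reached 5%. In addition, 24.8% of the 50-base words of the canonical SLC2A3 transcript occur in other genes, mostly in SLC2A14, which had 1.53 and 2.75 counts. Adding the copies to the gene left SLC2A1 higher, with a mean log2 ratio of 2.16 instead of 2.72.

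Hexokinase phosphorylates glucose and holds it in the cell. HK1, the widely expressed form, had 76.1 and 60.2 TPM, and HK2, the form of muscle and many tumours, had 29.1 and 28.9 TPM. HK1 took 70.0% ± 3.39 (SD, n = 2) of the step, and the deposited intervals of the pair did not overlap in either replicate. On the scale of estimated counts the share of HK1 was 57.0% in replicate 1 (95% exact binomial interval 55.1% to 58.8%) and 56.0% in replicate 2 (54.0% to 57.9%), since the HK2 transcripts are longer, with an average length of 5764 and 5424 nt against 2940 and 3329 nt for HK1. The order was therefore the same by both measures, but the margin of HK1 depended on the length. Of the other hexokinases, HK3 had no counts and HKDC1 had at most 1 count in a library.

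Glucose-6-phosphate isomerase, encoded by GPI alone, had 344 and 312 TPM. The 3 subunits of phosphofructokinase, which form mixed tetramers, were all present. PFKL, named for liver, had 62.5 and 53.0 TPM. The platelet subunit PFKP had 60.5 and 49.6 TPM, and the muscle subunit PFKM had 44.9 and 39.5 TPM. The shares of the step were 37.3% ± 0.0608, 35.5% ± 0.784 and 27.3% ± 0.723 (SD, n = 2). The TPM of PFKM lay below its deposited intervals, 48.0 to 64.1 TPM in replicate 1 and 42.6 to 57.1 TPM in replicate 2. By posterior mean TPM the 3 subunits were closer. PFKL had 59.5 and 51.0, PFKP 61.0 and 51.9, and PFKM 55.9 and 49.8, so the lower share of PFKM depended on the estimate. Although the order was the same in both replicates, the deposited intervals of neighbours overlapped in both, and PFKP was ahead of PFKL when the posterior mean TPM was used (mean log2 ratio of PFKL to PFKP -0.029). By counts PFKL stood apart, with 42.7% (40.9% to 44.6%) and 42.0% (40.0% to 44%) of the counts of the step. By counts per length of the canonical transcript in GENCODE release 44, an alternative chosen after the data were seen, PFKL was 1.27-fold above PFKP. The lead of PFKL over PFKP thus depended on the estimate used, whereas HK1 led HK2 under each of them.

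Aldolase splits fructose bisphosphate into 2 triose phosphates. ALDOA, the muscle and housekeeping form, had 1173 and 1164 TPM, whereas the brain form ALDOC had 3.75 and 2.85 TPM. ALDOA was thus 313-fold and 408-fold higher, a ratio that rests on 41 and 29.5 estimated counts of ALDOC. Over both replicates it was 235-fold higher by posterior mean TPM and 284-fold higher per canonical length. The triose phosphates are interconverted by TPI1, which had 1123 and 1051 TPM.

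GAPDH, which oxidizes glyceraldehyde 3-phosphate, lies on chromosome 12 (GRCh37 6643678 to 6647540, plus strand) and ranked 12 among the detected coding genes by mean TPM. It had 21014 and 19145 estimated counts. The sperm form GAPDHS had 3.55 counts in replicate 1 and none in replicate 2. GAPDH has 64 named pseudogene copies with a row, but all copies together held only 0.466% and 0.519% of the counts, the highest being GAPDHP35 with 23.3 and 29.3 counts. A larger number of reads lay at an overlapping gene with no symbol, ENSG00000269968, which covers 17.6% of the exonic bases of GAPDH and had 553 and 579 counts. The posterior SD of GAPDH was under 1% of its count in both replicates.

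Phosphoglycerate kinase PGK1, which makes the first ATP of the pathway, had 425 and 407 TPM, and its testis form PGK2 had no counts. The mutase PGAM1 had 336 and 319 TPM, and the muscle form PGAM2 had no counts. PGAM1 was the member with the largest absolute uncertainty from shared reads among the high genes, with a posterior SD of 55.9 and 50.2 counts, or 1.27% and 1.26% of its count. Of its 50-base words, 56.8% occur in other genes with a row, and 38% in ENSG00000186076 alone, which had 618 and 502 counts. The retrogene PGAM4 shares 597 words with PGAM1 and had 1.54 counts and none. How many of these reads came from PGAM1 was not tested.

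Enolase, which makes phosphoenolpyruvate, was almost entirely ENO1. This gene had 1104 and 1084 TPM, the neuronal ENO2 had 15.4 and 14 TPM, and the muscle ENO3 had 8 and 10.1 TPM. ENO1 was 71.7-fold and 77.3-fold higher than ENO2. Over both replicates it was 58.4-fold higher by posterior mean TPM and 116-fold higher per canonical length. ENO2, ENO3 and ALDOC, the nervous system and muscle forms, were therefore detected but lay below the median coding gene. ENO3 rested on 46.1 and 53.0 counts and shares 2.59% of its exonic bases with PFN1, a gene with 6391 and 5939 counts, and its posterior SD was 2.38% and 2.63% of its count. ENO4 had 1.64 and 0.97 TPM.

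Pyruvate kinase showed the most one-sided choice. PKM, which encodes the muscle and proliferative forms M1 and M2 by alternative splicing, had 861 and 826 TPM from 14221 and 13074 estimated counts. PKLR had 1 count in each library, for which an exact Poisson interval is 0.0253 to 5.57 counts, so no ratio is given. The tables are summed per gene, so M1 and M2 were not separated here. PKM lies on chromosome 15 (GRCh37 72491370 to 72524160, minus strand) and PKLR on chromosome 1 (155259084 to 155271229, minus strand). The promoter windows of both genes, from 250 bases before to 50 bases after each start in RefSeq on GRCh38.p14, are shown because the pair has the widest contrast of level in the set. CpG dinucleotides are in capitals.
PKM (chr15:72231141-72231440, minus strand): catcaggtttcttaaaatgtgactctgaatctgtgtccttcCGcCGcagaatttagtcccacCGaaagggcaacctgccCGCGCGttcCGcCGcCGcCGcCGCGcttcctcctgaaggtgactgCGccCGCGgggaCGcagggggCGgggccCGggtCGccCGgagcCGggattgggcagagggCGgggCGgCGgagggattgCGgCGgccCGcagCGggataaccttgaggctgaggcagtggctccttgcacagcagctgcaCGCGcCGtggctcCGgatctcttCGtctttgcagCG
PKLR window 1 (chr1:155301389-155301688, minus strand): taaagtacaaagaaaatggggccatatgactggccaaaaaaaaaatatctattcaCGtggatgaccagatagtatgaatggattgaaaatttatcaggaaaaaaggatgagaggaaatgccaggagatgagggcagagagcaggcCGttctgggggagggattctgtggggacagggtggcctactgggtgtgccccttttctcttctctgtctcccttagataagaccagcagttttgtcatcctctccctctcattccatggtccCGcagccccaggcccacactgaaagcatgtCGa
PKLR window 2 (chr1:155300903-155301202, minus strand): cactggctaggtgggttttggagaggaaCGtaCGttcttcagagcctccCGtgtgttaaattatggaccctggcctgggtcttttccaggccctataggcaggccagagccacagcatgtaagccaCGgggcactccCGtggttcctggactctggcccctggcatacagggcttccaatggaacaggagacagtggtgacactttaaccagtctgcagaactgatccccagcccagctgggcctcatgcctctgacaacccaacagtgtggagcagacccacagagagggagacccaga

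The PKM window holds 34 CpG and has a GC content of 68.0%. The 2 windows of PKLR hold 4 and 5 CpG, with 48.3% and 57.7% GC.

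Lactate dehydrogenase was the step where both isozymes were high. LDHA, the M subunit, had 903 and 851 TPM, and LDHB, the H subunit of heart, had 910 and 962 TPM. LDHB was 1.01-fold and 1.13-fold higher, and the deposited intervals overlapped in replicate 1 but not in replicate 2. Estimated counts gave the opposite order, with LDHA at 52.1% (51.3% to 53.0%) and 51.3% (50.4% to 52.1%) of the counts of the pair. The order therefore turned with the length correction, as the average transcript length was 1158 and 1224 nt for LDHA and 1059 and 1036 nt for LDHB. Per canonical length LDHB was 1.63-fold above LDHA. The testis form LDHC was detected at a low level, 3.81 and 4.49 TPM, and isozymes outside the set held 0.244% and 0.291% of the TPM of the step. Both promoters are shown, again with CpG in capitals, since these genes were near each other in level.
LDHA window 1 (chr11:18394313-18394612, plus strand): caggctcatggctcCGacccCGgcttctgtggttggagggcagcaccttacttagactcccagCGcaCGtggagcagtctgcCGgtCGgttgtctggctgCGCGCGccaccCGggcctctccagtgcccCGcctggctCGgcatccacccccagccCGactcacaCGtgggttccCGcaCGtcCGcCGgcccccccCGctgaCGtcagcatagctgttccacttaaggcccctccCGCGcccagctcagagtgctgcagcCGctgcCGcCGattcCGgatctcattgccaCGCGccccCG
LDHA window 2 (chr11:18396101-18396400, plus strand): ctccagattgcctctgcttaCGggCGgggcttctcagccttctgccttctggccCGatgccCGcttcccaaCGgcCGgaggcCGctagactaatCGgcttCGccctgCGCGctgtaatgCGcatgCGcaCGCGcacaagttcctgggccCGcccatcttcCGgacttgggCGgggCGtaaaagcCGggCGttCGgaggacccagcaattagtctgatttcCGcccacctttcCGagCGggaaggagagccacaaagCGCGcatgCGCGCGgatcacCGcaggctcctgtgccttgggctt
LDHB (chr12:21657793-21658092, minus strand): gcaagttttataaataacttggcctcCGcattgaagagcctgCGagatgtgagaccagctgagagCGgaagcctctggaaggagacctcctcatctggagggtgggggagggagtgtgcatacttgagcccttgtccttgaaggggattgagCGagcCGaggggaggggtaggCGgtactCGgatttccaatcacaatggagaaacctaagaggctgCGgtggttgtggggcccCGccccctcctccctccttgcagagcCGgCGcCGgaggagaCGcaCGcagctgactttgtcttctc

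The LDHA windows hold 29 and 31 CpG and the LDHB window 14, so genes of similar TPM differed in this feature. The first LDHA window holds the palindrome CACGTG, the E-box read by MYC and related factors, at 2 places, and the shorter ACGTG, the core of the hypoxia response element, at 5 places counted on both strands, of which each CACGTG gives one per strand. Neither string occurs in the second LDHA window or in the LDHB window. Among the pyruvate kinase windows shown above, window 1 of PKLR, which was not detected, holds CACGTG at 1 place and ACGTG at 2 places. The PKM window holds neither.

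**Figure D2:**
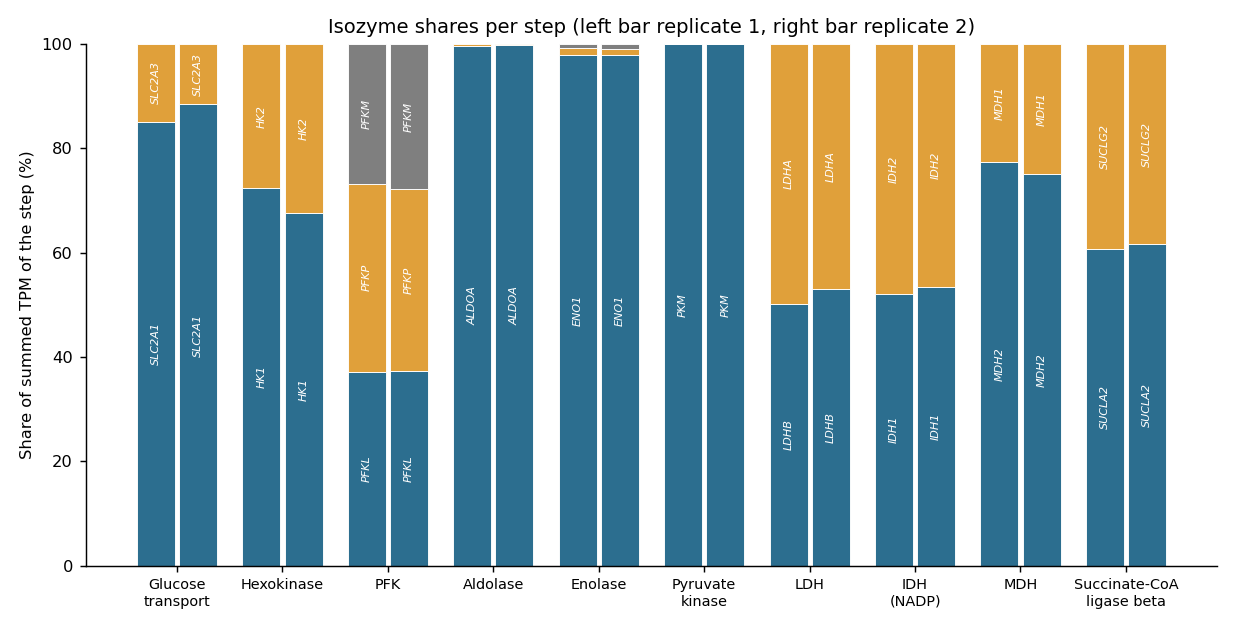
Share of each isozyme in the summed TPM of its step, in percent, with replicate 1 in the left bar and replicate 2 in the right bar of each pair; the highest isozyme is at the bottom. ALDOA, ENO1 and PKM fill nearly the whole bar, HK1 takes 72.4% and 67.6%, and the bars of phosphofructokinase, lactate dehydrogenase and NADP isocitrate dehydrogenase are split into similar parts.

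The 3 pentose phosphate enzymes of the set were all within the top 10% of the detected coding genes. PGD, the second dehydrogenase of the oxidative branch, had 148 and 137 TPM. Transketolase TKT had 304 and 287 TPM and transaldolase TALDO1 had 170 and 162 TPM, both of them enzymes of the reversible branch. TKT was 1.79-fold and 1.77-fold higher than TALDO1. The related genes TKTL1 and TKTL2 were not detected. The rest of the pathway was detected in full, 5 of 5 genes, beside 63.7% of the protein-coding genes. The lactonase PGLS had 45.4 and 54.7 TPM, the epimerase RPE 49.5 and 43.0 TPM and the isomerase RPIA 22.8 and 22.7 TPM, whereas H6PD, the enzyme of the endoplasmic reticulum, was at 5.06 and 4.02 TPM.

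The pyruvate dehydrogenase complex joins glycolysis to the TCA cycle. Its E1 alpha subunit PDHA1 had 261 and 258 TPM, and the E1 beta subunit PDHB had 96.9 and 93.9 TPM. The E2 transacetylase DLAT had 79.9 and 85.4 TPM, and the E3 dehydrogenase DLD, which also serves the oxoglutarate complex, had 88.4 and 93.4 TPM. PDHA1 was 2.69-fold and 2.75-fold higher than PDHB, its partner in the E1 heterotetramer, while PDHB, DLAT and DLD were within 1.21-fold of each other in TPM. This excess of PDHA1 depended on the length. The deposited average length of PDHA1 was 788 and 811 nt, 23.5% and 24.2% of the 3349 nt of its canonical transcript in the release named above. By counts per canonical length the ratio to PDHB was 0.657, and by counts alone it was 1.49. The near equality of the other subunits also held in TPM only, as PDHB was 0.643 of DLAT and 0.747 of DLD by counts, and 1.69-fold and 1.79-fold above them per canonical length. Whether that canonical transcript is in the annotation the authors used was not tested. The testis copy PDHA2 had no counts.

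Of 40 detected members, PDHA1, PGK1 and IDH3A had an average length under 50% of the canonical transcript in both replicates, and the median over the members was 78.6%. For PGK1 the length was 1104 and 1121 nt against 4812 nt, and for IDH3A 1463 and 1407 nt against 4083 nt. Their TPM values are therefore high relative to their counts. The canonical IDH3A transcript also shares 63.5% of its 50-base words with the neighbouring ACSBG1, which had 15.7 and 23.8 counts. PDHA1 shares 24.6% with MAP3K15, which had 122 and 99.3 counts.

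**Figure D3:**
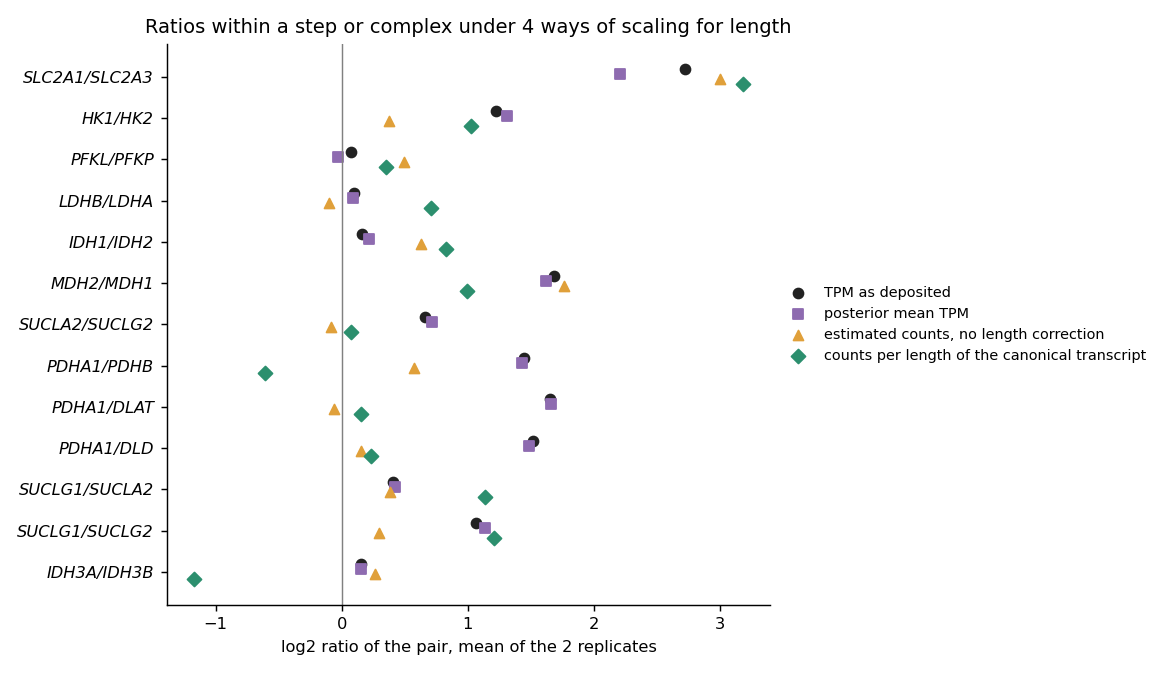
Mean log2 ratio over the 2 replicates for 13 pairs of isozymes or subunits under 4 scalings: TPM as deposited (circles), posterior mean TPM (squares), estimated counts (triangles) and counts per length of the canonical transcript (diamonds); the grey line marks equal levels. HK1/HK2 and MDH2/MDH1 stay right of the line under each scaling, whereas PFKL/PFKP, LDHB/LDHA, SUCLA2/SUCLG2, PDHA1/PDHB, PDHA1/DLAT and IDH3A/IDH3B cross it under at least 1.

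Pyruvate carboxylase PC, which makes oxaloacetate, was the lowest member of the mitochondrial arm with 17.2 and 13.3 TPM. In TPM it lay 5.64-fold and 7.06-fold below PDHB, and its posterior SD was 2.90% and 2.18% of its count. In replicate 2 its TPM lay below its deposited interval, 14.2 to 24.9 TPM. The gap was smaller by posterior mean TPM, with 20.4 and 19.3 for PC beside 91.5 and 88.8 for PDHB. By estimated counts it was smaller too, with 303 and 255 beside 988 and 931. All 11 other genes listed for pyruvate entry and the TCA cycle were detected, beside 63.7% of the protein-coding genes. Among them the mitochondrial pyruvate carrier subunits MPC1 and MPC2 had 56.8 and 57.0 TPM and 44.5 and 62.4 TPM. The kinases that switch off the complex were detected except for PDK4, with PDK2 at 30.2 and 25.6 TPM, PDK3 at 18.7 and 17.7 TPM and PDK1 at 15 and 19.8 TPM. PDK4 had 0.65 and 0.67 TPM from 17 and 15 counts. These values lay below its deposited intervals, 0.752 to 2.79 TPM in replicate 1 and 0.754 to 3.06 TPM in replicate 2. Both intervals include the detection limit of 1 TPM. The phosphatases PDP1 and PDP2 and the regulatory subunit PDPR were detected, with mean levels between 11.8 and 20.2 TPM.

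Citrate synthase CS opens the cycle and had 270 and 261 TPM. The cytosolic aconitase ACO1, outside the set, had 25 and 23.9 TPM. The NADP-dependent isocitrate dehydrogenases were close in TPM, with the cytosolic IDH1 at 42.2 and 43.3 TPM and the mitochondrial IDH2 at 38.7 and 37.8 TPM, and their deposited intervals overlapped in both replicates. By counts IDH1 led, with 59.4% (56.5% to 62.2%) and 62.0% (59.1% to 64.9%) of the pair, and per canonical length it was 1.78-fold above IDH2. For the NAD-dependent enzyme of the cycle, IDH3A had 103 and 112 TPM, and IDH3B had 103 and 90.5 TPM, so the 2 subunits exchanged places between the replicates. IDH3G, the remaining subunit, had 84.1 and 74.5 TPM. OGDH, the E1 subunit of the oxoglutarate complex, had 38 and 35.8 TPM, and its E2 subunit DLST had 75.2 and 69.2 TPM. The brain-type OGDHL was detected at 6.32 and 5.59 TPM.

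Succinate-CoA ligase pairs an alpha subunit with one of 2 beta subunits, of which SUCLA2 gives ATP and SUCLG2 gives GTP. The alpha subunit SUCLG1 had 61.0 and 71.3 TPM. SUCLA2 had 51.0 and 48.3 TPM and SUCLG2 had 32.9 and 30.1 TPM, so that the ATP-forming subunit was 1.55-fold and 1.61-fold higher in TPM and the deposited intervals did not overlap. By counts the pair was nearly equal, with SUCLA2 at 47.1% (44% to 50.2%) and 49.9% (46.8% to 53.1%). Per canonical length the mean log2 ratio of SUCLA2 to SUCLG2 was 0.073, so the margin in TPM rested on the deposited lengths. The 4 subunits of succinate dehydrogenase, outside the set, ranged in mean level from 55.3 TPM for SDHD to 216 TPM for SDHC.

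Fumarase FH had 61.4 and 66.2 TPM. Malate dehydrogenase was high in both compartments. The mitochondrial MDH2 had 443 and 437 TPM, the highest level of the mitochondrial arm, and the cytosolic MDH1 had 130 and 145 TPM. MDH2 was 3.41-fold and 3.02-fold higher, without overlap of the intervals, and per canonical length it was 2.00-fold higher. When all 40 detected members were ordered by mean TPM, the replicate ranges of 16 of the 39 neighbouring pairs overlapped, so the fine order is not resolved, but the steps from PKM to MDH2 and from GAPDH to ALDOA were.

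The isozymes that are not in the set were mostly silent, and 3 of 19 were detected, beside 63.7% of the protein-coding genes. These were SLC2A4 at 1.75 and 1.82 TPM, LDHC and OGDHL. Of the 19, 12 had at most 5 counts in each library, and HK3, PGK2, PGAM2, TKTL2 and PDHA2 had none. The enzymes that make fructose 2,6-bisphosphate, the activator of phosphofructokinase, were led by PFKFB3 with 22.7 and 23.3 TPM, and PFKFB1 was not detected. TIGAR, which degrades that activator, had 19.2 and 20.7 TPM. Of 5 genes of gluconeogenesis, beside the same 63.7%, only the mitochondrial PCK2 was detected, with 16.2 and 11.2 TPM. G6PC1, FBP1, FBP2 and PCK1 had at most 1 count in a library.

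Replicates differed little for these genes. The median absolute log2 ratio of TPM between replicates was 0.09 for the detected members and 0.14 for the detected coding genes. Since members are high, the 34 members with a mean of at least 30 TPM were also set beside the 4874 coding genes at that level, and the medians were 0.08 and 0.09. The largest ratio among the members was 1.32-fold, for ALDOC. TPM was lower in replicate 2 for 30 of 41 members, beside 58.2% of the detected coding genes.

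For each gene the rounded counts of both libraries were set against the library sizes in a two-sided exact binomial test, which asks whether they differ beyond read sampling. The test is between libraries and not between conditions. After Benjamini-Hochberg adjustment 3 of the 40 tested members passed, beside 3.77% of 17920 genes. GPI (log2 ratio of scaled counts, replicate 2 over replicate 1, -0.11, adjusted p = 0.00552) and GAPDH (-0.06, adjusted p = 0.00454) were higher in replicate 1, as were 1.71% of all tested genes. DLD (0.20, adjusted p = 0.0235) was higher in replicate 2, as were 2.05%. These differences were small, and for GAPDH and GPI they were found in genes with at least 4541 counts in a library. Without adjustment 14 members had p under 0.05, beside 12.8% of all tested genes, and the median log2 ratio of the members was -0.05. The tested genes start at a summed count of 10, and the test can call smaller differences at higher counts. The shares of members and of all tested genes are therefore not matched for level.

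Part of the difference in TPM between the replicates came with the average length that the estimation gave each library. This length changed by more than 0.1 on the log2 scale for 7 of the 40 detected members. For SLC2A1 the log2 ratio was 0.33 in TPM and 0.16 in scaled counts, while the length fell from 2887 to 2527 nt. For HK1 it was -0.34 in TPM and -0.13 in scaled counts, while the length rose from 2940 to 3329 nt. For PC it was -0.37 and -0.17, with lengths of 2417 and 2715 nt. For SUCLA2 the sign turned, with -0.08 in TPM and 0.09 in scaled counts, while the length rose from 1314 to 1447 nt. DLD, whose length change of 0.09 was under that limit, had 0.08 in TPM and 0.20 in scaled counts. Its length rose from 1916 to 2042 nt, so its difference was smaller in TPM than in counts.

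**Figure D4:**
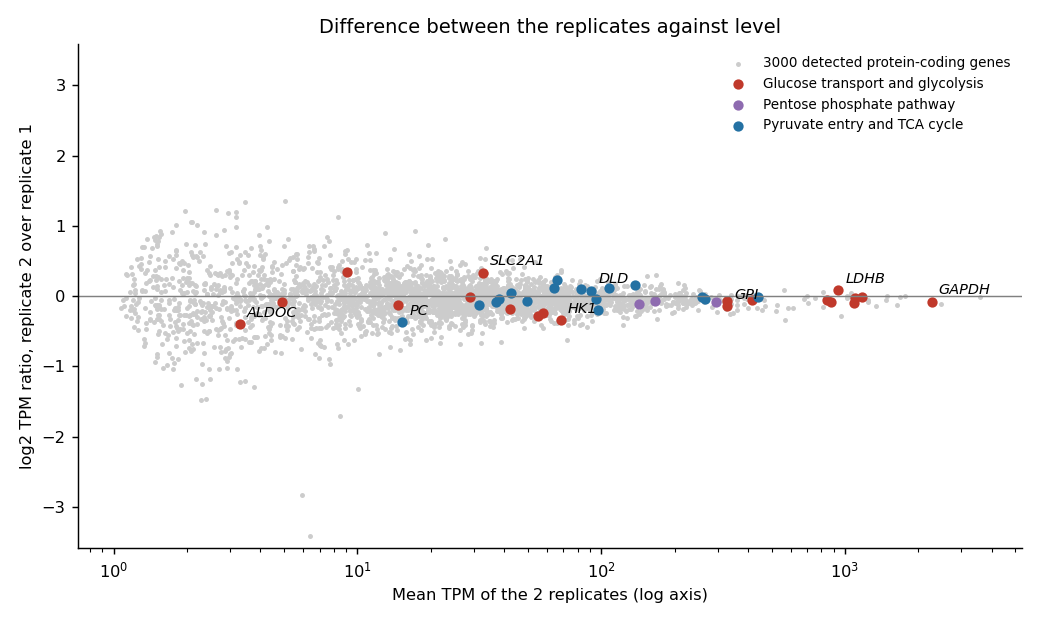
Log2 ratio of TPM, replicate 2 over replicate 1, against mean TPM on a log axis; grey points are 3000 of the detected protein-coding genes drawn at random, and coloured points are the 40 detected members by arm. Members lie within 0.40 of 0, with ALDOC and PC lowest, and the spread of all genes narrows with level.

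The deposited TPM and the deposited intervals belong to different estimates. The interval is centred on a posterior mean, and the TPM lay above its interval for 14 members in replicate 1 and 13 in replicate 2 and below it for 2 in each. The median ratio of TPM to posterior mean over all genes was 1.08 in replicate 1 for genes from 1000 TPM and 0.899 for genes from 1 to 10 TPM, so the intervals are used here only to compare genes with each other. For 36 of 41 members the posterior SD was under 1% of the count in both replicates. The others were SLC2A3, ALDOC, ENO3, PC and PGAM1. There were 119 named pseudogene copies of 18 members with a row, and for 39 members the copies held under 1% of the counts in both replicates. The highest copies of the remaining genes were LDHAP7 with 20.1 counts in each library and ENO1P4 with 20.1 counts and none. Of the canonical transcripts, 13 shared no 50-base word with another gene and 7 shared over 20%.

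Promoter windows were at hand for 39 of the 41 genes, all but SLC2A3 and OGDH. The median gene had 26 CpG per 300-base window and a GC content of 67.5%. The detected coding genes also had a median of 26 CpG, and the coding genes that were not detected had 7. Of the other pathway genes, the 34 detected had a median of 27.75 and the 21 not detected a median of 13. Detected members with few CpG included HK1, with a median of 1 over 7 windows and 37 in the richest, PGAM1 with 5 and IDH2 with 6. PC had a median of 8 and ALDOA of 10, each over 3 windows, with 25 and 35 in the richest. In contrast, FBP1 was not detected with 32. CpG content therefore went with detection as it does over all coding genes, but not gene by gene.

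**Figure D5:**
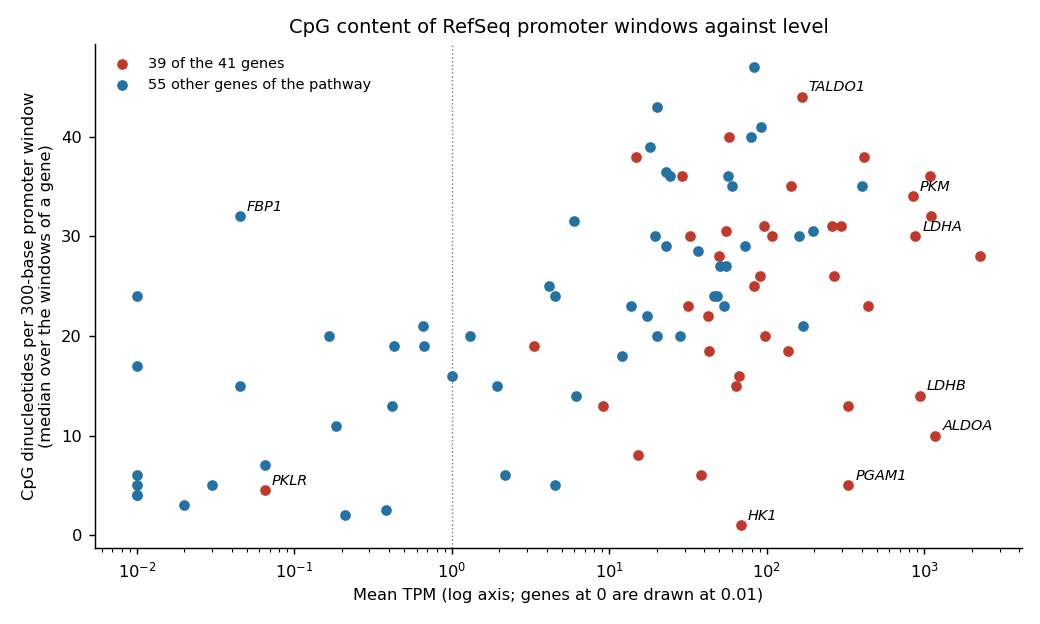
CpG dinucleotides per 300-base promoter window, as the median over the windows of a gene, against mean TPM on a log axis for 39 of the 41 genes and 55 other genes of the pathway; genes at 0 are drawn at 0.01, and the dotted line is 1 TPM. PKLR sits low on both axes, PKM and LDHA are high on both, and HK1, PGAM1 and LDHB are well expressed with few CpG in the median window.

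The palindrome CACGTG was found in at least 1 window of 7 of the 39 genes, 17.9%, beside 12.9% of the detected coding genes and 11% of all coding genes with a window. ACGTG or its complement CACGT, which every CACGTG also holds, was found in 17 genes, 43.6%, beside 32.9% of the detected and 28.8% of all coding genes. TATAAA, on either strand, was found in 3 genes, 7.69%, beside 8.39% and 12.3%. Over all 35116 windows the shares were 7.26%, 21.4% and 11.5%. A match describes these letters only and is not evidence of binding.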

How the data were processed

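Poly(A)+ RNA of HEK293T cells was sequenced with 50-base reads in 2 libraries, which form 1 group. Per the submitters' processing notes the authors used Trimmomatic 0.36, STAR 2.6.1c and RSEM 1.3.1. The methods name GRCh37 with Ensembl release 87 and featureCounts, but the columns are those of RSEM. Estimated counts (expected counts), in which a read fitting several genes is shared out, TPM and FPKM were deposited per gene by the authors. The posterior SD, the interval bounds and the average lengths are scores deposited by the authors. The use of strand in counting is not stated in these sources, so antisense and overlapping genes cannot be told apart. A table of pooled reads, deposited by the authors, was used only as an alternative.

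Symbols came from GENCODE release 44 mapped to GRCh37 (96.1% of identifiers matched), and promoter windows from RefSeq on GRCh38.p14. The members and lists were chosen with earlier results of these data known. All members and list genes could be named, with copies holding at least 5% of the counts of a gene and its copies, and the highest copy of each other member from 10 counts. ENSG00000269968, ENSG00000186076, SLC2A14, ACSBG1, MAP3K15 and PFN1 were named after their values were seen. Counts were rounded and tested with scipy 1.17.1, the p-value being the doubled smaller tail, against TMM-scaled sizes (edgeR 4.0.16, R 4.3.3) for genes whose summed count reached 10, adjusted by Benjamini-Hochberg at 0.05, and log2 ratios of counts used 0.5 added counts. With 2 values against 2 no exact permutation test can go below 0.33 two-sided, so isozymes were compared without p-values. The binomial test was tested on simulated data, where it recovered 153 of 200 genes changed 1.5-fold and called 5 unchanged genes over 17491 genes. The simulated counts varied by read sampling only, which is what the test assumes. The changed genes were taken from genes with summed counts well above the filter of 10. These numbers therefore do not show how the test behaves under other variation or at low counts. Words of 50 bases, the read length, were compared among canonical and other transcripts. Alternatives were other levels of detection, FPKM, posterior mean TPM, counts, added copies and isozymes, other scalings and filters, pseudocounts of 1 and 0.1, and leaving out each replicate. The values of some listed genes are not reported here. A comparison of isozyme proteins was planned and not done here.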

Additional observations from a re-analysis of the deposited data

How the results depend on the processing

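No paired analysis was possible because both libraries belong to one group. The highest isozyme was the same in 10 of 10 steps under FPKM, with pseudogene copies or other isozymes added, in the pooled table, per canonical length and without either replicate (10 to 10). It was the same in 9 steps by posterior mean TPM, where PFKL to PFKP turned to -0.029 (log2), and in 8 by estimated counts, where LDHB to LDHA turned to -0.10 and SUCLA2 to SUCLG2 to -0.085. Alternatives for subunits were chosen after the data were seen. By counts, PDHA1 to DLAT was -0.065, PDHB to DLAT -0.64 and PDHB to DLD -0.42. Per canonical length, PDHA1 to PDHB was -0.61 and IDH3A to IDH3B -1.17, the latter also being -0.0034 without replicate 2 and 0.31 without replicate 1. The turns by counts and per canonical length follow from the lengths used, and the cause of the PFKL turn was not tested.

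Members detected ranged from 38 to 40. By posterior mean, summed TPM fell to 8999 from 9657 for glycolysis, to 577 from 604 for the pentose phosphate enzymes and to 1835 from 1920 for pyruvate entry and the TCA cycle. The ranges without 1 replicate were 9476 to 9839, 586 to 622 and 1917 to 1922. The median percentile was 90.4 among all detected genes and 87.9 to 88.2 without 1 replicate. Members that differed between the libraries numbered 3 with RLE or other count filters and 4 with total counts, when PFKL was added. The median spread stayed within 1.5-fold under each pseudocount and filter. The number of counts limits ALDOC, ENO3 and SLC2A3, and 2 replicates limit every SD.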

Other observations

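Genes around the pathway that belong to no comparison above were also measured. Of 5 genes of lactate transport 4 were detected, beside 63.7% of the protein-coding genes. The monocarboxylate transporter SLC16A1 (MCT1) had 161 and 143 TPM and its chaperone BSG had 407 and 394 TPM, whereas SLC16A3 (MCT4) had 1.74 and 2.15 TPM and SLC16A8 had 2.12 and 2.21 TPM. SLC16A7 (MCT2) was not detected, with 1 and 5 counts. SLC16A1 was thus 92.3-fold and 66.7-fold above SLC16A3, a ratio that rests on 18 and 19.9 counts of the latter. The TPM of SLC16A3 also lay below its deposited intervals, 3.10 to 7.07 TPM in replicate 1 and 3.47 to 7.96 TPM in replicate 2. With SLC16A3 at a level inside its interval the ratio would be smaller.

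Of 9 genes of malate, glutamate and citrate use 8 were detected, beside 63.7% of the protein-coding genes. ATP citrate lyase ACLY, which makes cytosolic acetyl-CoA, was highest with 205 and 190 TPM, followed by the mitochondrial aspartate aminotransferase GOT2 with 170 and 168 TPM. Glutamate dehydrogenase GLUD1 had 84.7 and 79.9 TPM, and the cytosolic aminotransferase GOT1 had 46.2 and 50.2 TPM. The liver-type glutaminase GLS2 had 5.89 and 6.48 TPM. Among the malic enzymes ME2 had 62.4 and 57.1 TPM and ME1 had 20.1 and 19 TPM, while ME3 had 1 count in each library. In the exact binomial comparison of the libraries ACLY was higher in replicate 1 (log2 ratio -0.09, Benjamini-Hochberg adjusted p = 0.0372) and MPC2 was higher in replicate 2 (0.41, adjusted p = 0.0122).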
